A study of Mus musculus with 2 samples.

Results

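The 41 genes described here carry out or regulate the cell division cycle and were measured in the chromatin-bound RNA of unstimulated mouse macrophages. They were taken by gene symbol and fall into 4 groups by role. These are 16 S phase genes (replication and nucleotide synthesis genes with the E2F factors that drive them), 12 mitotic genes, 7 G1 cyclins and cyclin-dependent kinases, and 6 inhibitors and pocket proteins. All 41 were found among the 55536 annotated genes of the gene table, of which 22015 are nuclear protein-coding genes.

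The samples were primary bone marrow-derived macrophages of C57BL/6J mice at 0 min of lipid A (the toll-like receptor 4 ligand of bacterial endotoxin) at 100 ng/ml. The labels give no other time, genotype or treatment and no recorded age or sex, so there was 1 group and no comparison between conditions. RNA of the chromatin fraction was depleted of ribosomal RNA and made into 2 libraries with fragments of 250 to 400 bases. Replicate 1 started from 250 ng of RNA and replicate 2 from 500 ng. The labels number them as biological replicates but list 1 donor for both. Separate animals can therefore not be assumed, and their spread may be technical.

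The depth of the gene table was 10970767 expected counts for replicate 1 and 14207280 for replicate 2, where an expected count is an estimated number of reads with ambiguous reads shared out. Levels are given in TPM, a unit of transcript abundance that is corrected for length and scaled to a fixed sum per library, so that genes can be compared. A gene counts as detected where neither library has it under 1 TPM. This held for 8 of 8 macrophage markers, whose median level was 63.7 TPM. None of the 32 markers of marrow progenitors, neutrophils, erythroid cells, lymphocytes and stroma was detected in the gene table. The summed level of the 8 progenitor markers was 1.25 TPM in replicate 1 and 1.17 TPM in replicate 2, and their highest members were Prtn3 at 0.51 TPM and Kit at 0.445 TPM. A second transcript table, taken up below, held more counts in all. It gave the progenitor markers 295 and 397 counts, against 25 and 48 in the gene table, and a median of 0.58 TPM against 0.03 TPM. It gave the stromal markers 267 and 399 counts, against 40 and 70. Absence of these cells therefore rests on the gene table.

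A cell that commits to division phosphorylates the pocket proteins through cyclin D with CDK4 or CDK6 and cyclin E with CDK2. This releases E2F factors, which switch on the genes for DNA synthesis. Genes for mitosis follow later, under the control of the DREAM and MuvB complexes with B-Myb and FoxM1. Inhibitors such as p21 and p27 hold the kinases back. Macrophages from marrow divide in culture in response to macrophage colony-stimulating factor and stop when they mature or are activated.

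By group median, the members that restrain the cycle stood above the members that execute it. The inhibitors and pocket proteins had a median of 22.2 ± 1.45 TPM (SD of the library medians, n = 2), and the G1 cyclins and kinases one of 4.76 ± 0.368 TPM. The S phase genes had a median of 3.22 ± 0.0566 TPM and the mitotic genes the lowest, 1.90 ± 0.0884 TPM. Each median is taken over the mean TPM of the genes, so it need not lie between the library medians. These were 3.355 and 3.275 TPM for S phase genes and 1.965 and 2.09 TPM for mitotic genes. Over all nuclear protein-coding genes the median was 0.72 TPM, and over the detected ones it was 11.06 TPM. In the plot of levels, 38 of the 41 members lay above the first of these medians and 8 above the second.

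**Figure D1:**
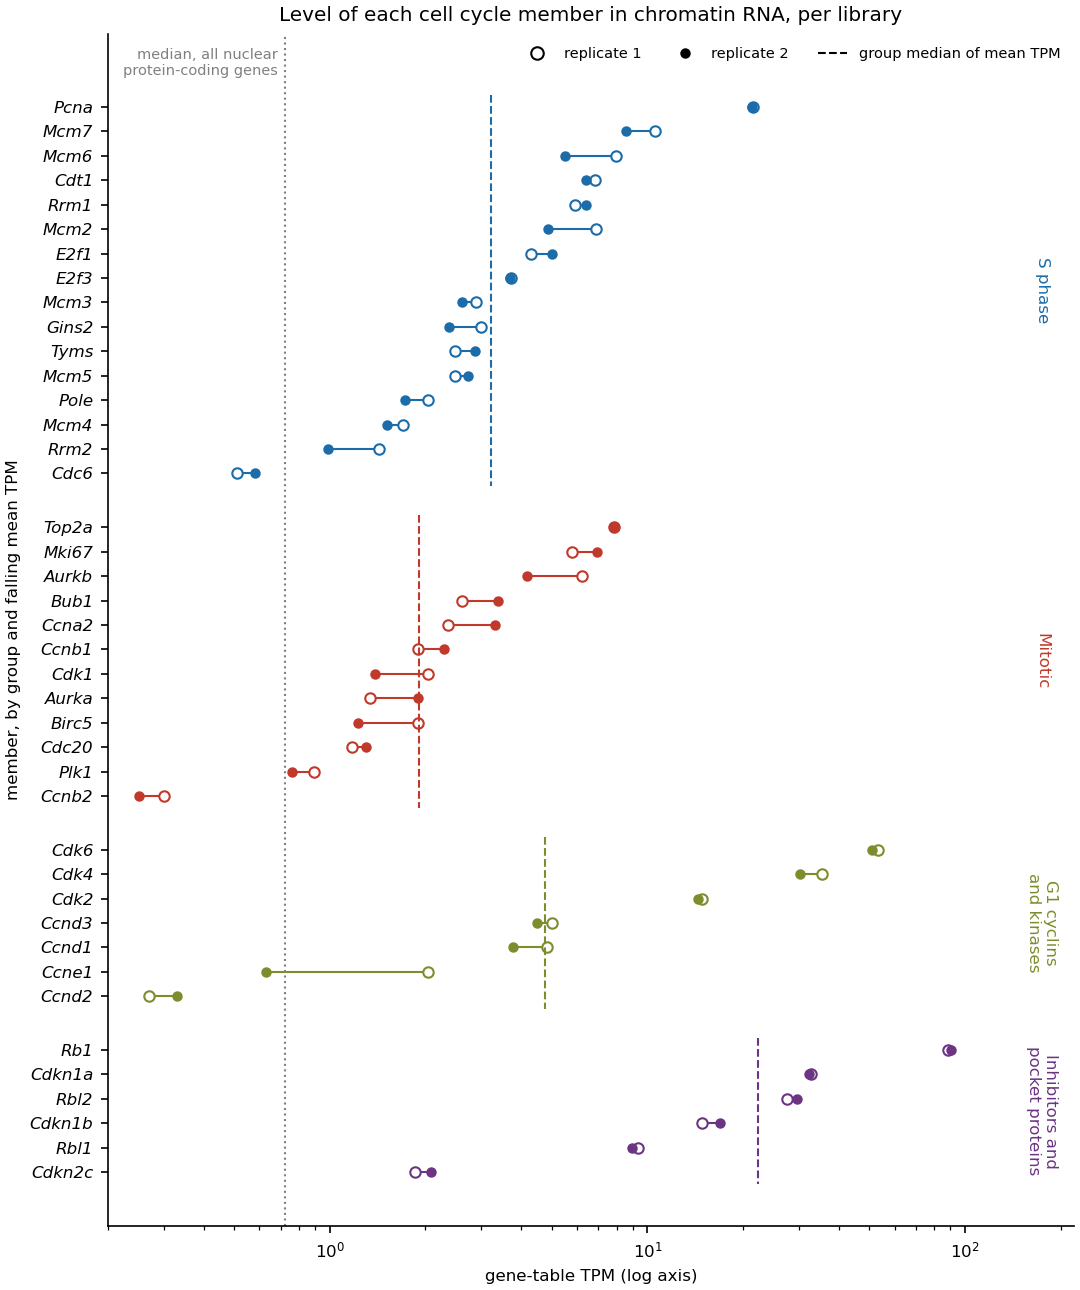
Gene-table TPM of each member (log axis) in replicate 1 (open points) and replicate 2 (filled points), in rows by group and falling mean. Dashed lines give the group medians (3.22 TPM for S phase, 1.90 for mitotic, 4.76 for G1 and 22.2 for inhibitor and pocket protein genes) and the dotted line the median of all nuclear protein-coding genes, 0.72 TPM. By mean TPM, which is not drawn, mitotic genes other than Top2a, Mki67 and Aurkb lie left of the S phase median. The replicate 2 points of Ccna2 (3.32 TPM) and Bub1 (3.39 TPM) lie right of that median.

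The S phase median was 1.71-fold the mitotic median in replicate 1 and 1.57-fold in replicate 2. The groups overlapped widely. Of the 16 S phase genes, 12 lay above the mitotic median, while 3 of the 12 mitotic genes lay above the S phase median. The S phase median stayed the higher one under each of the 11 alternatives tried, with log2 ratios of 0.51 to 1.16 against 0.76 for the mean levels. The alternatives are not all separate checks. They include a rescaling that multiplies each library by a constant, which could hardly move the ratio, and the single-library ratios given above. In a bulk sample, fewer dividing cells and less RNA per dividing cell cannot be told apart.

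The count of detected members was high against the background. Of the 41 members 35 were detected (85.4%), against 46.7% of nuclear protein-coding genes. The detected ones were 14 of 16 S phase genes, 10 of 12 mitotic genes, 5 of 7 G1 genes and 6 of 6 inhibitors and pocket proteins. The 6 that were not were Rrm2, Cdc6, Ccnb2, Plk1, Ccnd2 and Ccne1. When only transcripts annotated as protein-coding were counted, the mitotic genes detected dropped to 5 and the S phase genes to 10.

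Rb1 encodes the retinoblastoma protein, the pocket protein that binds and blocks the activating E2Fs, and was the most abundant member by gene-level TPM. It stood at 88.27 TPM in replicate 1 and 90.60 TPM in replicate 2, on 1877 and 2982 counts. This placed it at rank 474 among nuclear protein-coding genes. On transcripts annotated as protein-coding Rb1 was at 36.05 and 38.04 TPM, below Cdk6 at 49.26 and 47.29 TPM. Of that Cdk6 level, 18.46 and 15.24 TPM were assigned to the 697-base Cdk6-203 and 12.78 and 14.3 TPM to the 425-base Cdk6-205. The 11525-base Cdk6-202 held 13.49 and 12.49 TPM, so the order of Rb1 and Cdk6 rests on short entries. Rb1 lies on the minus strand at chr14:73183673-73325822 (mm10). The span of Rb1 holds the G protein-coupled receptor gene Lpar6 on the other strand, with 1370 and 2199 counts of its own and 408 exonic bases in common with Rb1. Rcbtb2, which overlaps Rb1 in part, shares 488.

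The other pocket proteins were lower. Rbl2 (p130, the pocket protein of resting cells and the DREAM complex) was at 27.56 and 29.58 TPM, and Rbl1 (p107, which is itself an E2F target) at 9.35 and 8.92 TPM. Rb1 was thus 3.20-fold and 3.06-fold above Rbl2, and 9.44-fold and 10.2-fold above Rbl1, in replicates 1 and 2. The order Rb1, Rbl2, Rbl1 was the same in both libraries, with gaps far wider than the difference between them. Rb1 was also 20.5-fold and 18.0-fold above E2f1. On transcripts annotated as protein-coding the gap was smaller, 36.05 and 38.04 TPM for Rb1 against 4.31 and 5.02 TPM for E2f1.

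Among the kinase inhibitors, Cdkn1a (p21, a target of p53) led at 32.77 and 32.34 TPM. Cdkn1b (p27, which holds back cyclin E with CDK2 in resting cells) was at 14.82 and 16.89 TPM. Cdkn1a was therefore 2.21-fold Cdkn1b in replicate 1 and 1.91-fold in replicate 2. Cdkn2c (p18, an inhibitor of CDK4 and CDK6) was far lower, at 1.85 and 2.08 TPM on 28 and 53 counts. A short unnamed entry on the opposite strand inside Cdkn1a, AC167363.2, was listed at 35.34 and 32.15 TPM and shares 273 exonic bases with it, so the strand of those reads could not be settled.

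The kinases of G1 were high and their cyclins low. Cdk6, at chr5:3341485-3531008 on the plus strand, was listed at 53.14 TPM in replicate 1 and 50.86 TPM in replicate 2. Cdk4, which pairs with the same D cyclins, was at 35.45 and 30.27 TPM, and Cdk2, the partner of cyclins E and A, at 14.80 and 14.43 TPM. The order Cdk6, Cdk4, Cdk2 held in both libraries, with Cdk6 1.5-fold and 1.68-fold above Cdk4. On transcripts annotated as protein-coding the order was the same, with Cdk6 at 49.26 and 47.29 TPM, Cdk4 at 12.68 and 9.10 TPM and Cdk2 at 5.34 and 4.89 TPM. Of the Cdk6 level, 18.46 and 15.24 TPM were assigned to the 697-base Cdk6-203, on 87.4 and 107 counts, and 13.49 and 12.49 TPM to the 11525-base Cdk6-202, on 1577 and 2187 counts. The 425-base Cdk6-205 held 12.78 and 14.3 TPM, on 25.2 and 41.2 counts.

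The D cyclins, which carry growth factor signals to CDK4 and CDK6, were at 4.81 and 3.77 TPM for Ccnd1 and at 5.02 and 4.50 TPM for Ccnd3. The gap between these was no larger than the difference between libraries. Ccnd2, the third D cyclin, was near the floor of the gene table at 0.27 and 0.33 TPM, on 6 and 21 counts, and is taken up again with the second table. Ccne1, the cyclin that brings CDK2 to the G1 to S transition, had 2.03 TPM in replicate 1 and 0.63 TPM in replicate 2 on 14 and 13 counts. Its raw counts were thus nearly equal. After scaling for depth, the log2 ratio of replicate 2 over replicate 1 was -0.57, with a 95% interval from counting error of -1.80 to 0.60. The estimated effective length also differed, 664 bases in replicate 1 and 1335 in replicate 2.

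Among S phase genes Pcna was the highest. It encodes the sliding clamp that holds polymerases on DNA and was at 21.55 and 21.32 TPM, on 186 and 263 counts. The 6 subunits of the MCM helicase, whose proteins unwind DNA as an equimolar ring, were not level in gene-level TPM. Mcm7 was highest at 10.57 and 8.59 TPM, and Mcm4 lowest at 1.70 and 1.51 TPM. Between them Mcm6 was at 7.99 and 5.49 TPM, Mcm2 at 6.91 and 4.87 TPM, Mcm3 at 2.89 and 2.60 TPM and Mcm5 at 2.47 and 2.73 TPM. The span from Mcm4 to Mcm7 was 6.22-fold in replicate 1 and 5.69-fold in replicate 2. Mcm6 and Mcm2 were above Mcm3, Mcm5 and Mcm4 in both libraries, while Mcm3 and Mcm5 changed places. On transcripts annotated as protein-coding the span was narrower, with Mcm7 at 4.28 and 5.26 TPM and Mcm4 still lowest at 1.70 and 1.51 TPM. The order also changed there. Mcm6, at 4.69 and 4.09 TPM, was above Mcm7 in replicate 1, and Mcm3 (2.50 TPM) was above Mcm2 (2.08 TPM) in replicate 2.

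Licensing and initiation factors were spread as widely. Cdt1, which loads the MCM ring, was at 6.82 and 6.42 TPM, while its partner Cdc6 was at 0.51 and 0.58 TPM on 23 and 29 counts. Gins2, a subunit of the active helicase, was at 3.0 and 2.37 TPM, and Pole, the catalytic subunit of the leading strand polymerase, at 2.04 and 1.73 TPM. The Gins2 value is uncertain, since 2758 of its exonic bases are shared with Gse1 on the opposite strand.

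The nucleotide synthesis genes were uneven. Rrm1, the large subunit of ribonucleotide reductase, was at 5.93 and 6.41 TPM. Rrm2, the small subunit that limits the enzyme in S phase, was at 1.43 and 0.99 TPM on 20 and 17 counts. Tyms, thymidylate synthase, was at 2.47 and 2.87 TPM. Of the 2 activating E2Fs, E2f1 was at 4.31 and 5.02 TPM and E2f3 at 3.71 and 3.68 TPM.

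By mean gene-level TPM, mitotic genes were led by Top2a and Mki67, while on transcripts annotated as protein-coding Mki67 was above Top2a. Top2a, the topoisomerase that untangles sister chromosomes, was at 7.83 and 7.86 TPM, of which 2.75 and 3.88 TPM lay on protein-coding transcripts. Mki67, which encodes the Ki-67 protein of the mitotic chromosome surface, lies at chr7:135689784-135716361 on the minus strand and was at 5.78 and 6.95 TPM. Its 588 and 1058 counts made up 57.3% of all mitotic counts in each library, so any sum over this group is weighted to it.

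The kinases of mitosis were mostly lower. Aurkb (Aurora B, of the chromosomal passenger complex) was at 6.22 and 4.17 TPM, above Mki67 in replicate 1. On protein-coding transcripts Aurkb was at 1.24 and 1.37 TPM, below Mki67 in both libraries. Bub1 (a spindle checkpoint kinase) was at 2.61 and 3.39 TPM and Cdk1 (the kinase that starts mitosis) at 2.03 and 1.39 TPM. Aurka (Aurora A, of the spindle poles) was at 1.34 and 1.89 TPM, and Plk1 (a kinase of mitotic entry) at 0.89 and 0.76 TPM. All of these rested on fewer than 100 counts per library. Cdk2 was 7.29-fold Cdk1 in replicate 1 and 10.4-fold in replicate 2.

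Of the mitotic cyclins, Ccna2 (cyclin A2) was at 2.36 and 3.32 TPM and Ccnb1 (cyclin B1) at 1.90 and 2.29 TPM. Ccnb2 (cyclin B2) was the lowest of all 41 members, at 0.30 and 0.25 TPM on 4 and 5 counts. Cdc20, the activator of the anaphase-promoting complex, was at 1.17 and 1.30 TPM on 10 and 18 counts. Birc5 (survivin, another passenger subunit) was at 1.90 and 1.23 TPM. In all, 2 of 16 S phase genes and 10 of 12 mitotic genes had under 50 counts in at least 1 library, so mitotic values carry the larger counting error.

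Longer lists of replication and mitotic genes gave the same order of medians. The 48 further replication genes had a median of 4.93 ± 0.590 TPM, with 41 detected, and the 48 further mitotic genes one of 2.71 ± 0.283 TPM, with 33 detected. The ratio of the first to the second was 2.17 in replicate 1 and 1.58 in replicate 2. The highest replication genes were Orc3 (a subunit of the origin recognition complex) at 59.5 TPM, Rfc2 (of the clamp loader) at 59.03 TPM and Pold3 (of polymerase delta) at 51.2 TPM. The lowest was Fen1 (the flap endonuclease) at 0.305 TPM. The highest mitotic ones were Cenpa (the centromeric histone) at 95.6 TPM, Incenp (of the passenger complex) at 47.4 TPM and Smc4 (of condensin) at 35.3 TPM. Cks2 and Ube2c, a kinase subunit and the ubiquitin-conjugating enzyme of anaphase, were lowest in the gene table at 0.32 TPM each. In the second transcript table Cks2 was listed at 1.79 and 3.76 TPM and Ube2c at 5.14 and 8.34 TPM, with Ube2c above the list's median there, 3.44 and 6.33 TPM. High levels of single members therefore occurred on both sides.

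The 14 further E2F and DREAM complex genes had a median of 4.43 ± 0.205 TPM, with 13 detected. They were led by Rbbp4 (a histone-binding subunit of MuvB) at 19.8 TPM, E2f4 (the repressive E2F of resting cells) at 17.2 TPM and Tfdp1 (the E2F dimer partner) at 14.9 TPM. The lowest in the gene table were E2f2 at 1.26 TPM and E2f7 at 0.925 TPM, but the second transcript table lists E2f7 at 20.4 and 25.5 TPM. There Rbbp4 was at 14.2 and 23.1 TPM, E2f4 at 16.4 and 22.6 TPM and Tfdp1 at 15.9 and 26.2 TPM. In the gene table E2f4 was above both activating E2Fs among the members. The 20 further inhibitor and checkpoint genes had a median of 7.79 ± 0.682 TPM, with 16 detected. They were led by Mdm2 (the p53 ligase and a p53 target) at 125 TPM, Gadd45a (a stress sensor) at 50.7 TPM and Gadd45b at 28.8 TPM. Cdkn2b at 0.615 TPM and Cdkn2a at 0.05 TPM, which encode p15 and p16 with Arf, were lowest. In the second transcript table the median of these 20 genes was 6.74 TPM, below the 8.49 TPM of the further replication genes. The place of inhibitors above replication genes was thus not kept there by the longer lists.

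The promoters of S phase and mitotic genes differ in known elements, the E2F site and the cell cycle homology region (CHR), which MuvB complexes bind. RefSeq windows on GRCm38.p6, from 250 bases before to 50 after the start, were at hand for 33 of the 41 members, and the words were searched on both strands. E2F-type words were TTTCCCGC, TTTGGCGC, TTTCGCGC and TTTGCCGC, the CHR word was TTTGAA, and the NF-Y word was CCAAT. E2F-type words can overlap each other. The following stretches, all from before the start, show the E2F-type and CHR words in capitals, with CCAAT and its reverse ATTGG left in lower case, for a pair of helicase genes, for E2f3, which holds both kinds, and for 3 mitotic genes.
Mcm5, chr8:75109349-75109508, plus strand: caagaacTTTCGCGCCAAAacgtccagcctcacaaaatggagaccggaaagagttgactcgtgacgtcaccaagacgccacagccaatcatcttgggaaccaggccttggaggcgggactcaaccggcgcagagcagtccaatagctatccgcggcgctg
Mcm6, chr1:128359706-128359865, minus strand: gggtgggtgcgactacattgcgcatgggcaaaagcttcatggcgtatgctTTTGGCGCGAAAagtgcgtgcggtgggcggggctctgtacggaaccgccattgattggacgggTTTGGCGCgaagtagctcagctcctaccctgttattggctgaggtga
E2f3, chr13:29986064-29986223, minus strand: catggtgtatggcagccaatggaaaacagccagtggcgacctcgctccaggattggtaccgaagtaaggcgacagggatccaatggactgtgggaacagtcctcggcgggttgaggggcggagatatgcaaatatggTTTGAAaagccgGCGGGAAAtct
Mki67, chr7:135716380-135716539, minus strand: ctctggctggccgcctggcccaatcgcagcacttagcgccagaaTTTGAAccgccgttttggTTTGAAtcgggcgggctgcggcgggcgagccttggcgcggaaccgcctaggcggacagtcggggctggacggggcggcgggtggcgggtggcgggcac
Top2a, chr11:99024190-99024349, minus strand: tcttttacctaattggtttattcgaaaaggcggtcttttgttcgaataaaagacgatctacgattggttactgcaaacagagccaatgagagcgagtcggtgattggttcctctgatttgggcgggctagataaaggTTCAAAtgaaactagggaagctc
Cdk1, chr10:69352939-69353072, minus strand: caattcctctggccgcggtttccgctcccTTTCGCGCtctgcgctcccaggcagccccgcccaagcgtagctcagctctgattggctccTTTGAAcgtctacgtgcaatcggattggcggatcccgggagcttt

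An E2F-type word was present in the windows of 7 of 13 S phase genes, Mcm3, Mcm5, Mcm6, Mcm7, E2f3, Cdc6 and Cdt1, and of 1 of 10 mitotic genes, Cdk1. Among all 27025 genes with a window, 2.61% held one. In Mcm5 and Mcm6 words of opposite strands overlapped, 153 and 110 bases before the start. The CHR word was present in 2 of 13 S phase genes (Mcm2 and E2f3) and in 7 of 10 mitotic genes (Mki67, Top2a, Ccnb2, Cdk1, Aurka, Plk1 and Cdc20), against 20.2% of all genes. The NF-Y word was present in 9 of 13 S phase genes, 9 of 10 mitotic genes and 41.1% of all genes. Among the inhibitors and pocket proteins Rbl1 held an E2F-type word and Rbl2 the CHR word, and among G1 genes Cdk2 held an E2F-type word.

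**Figure D2:**
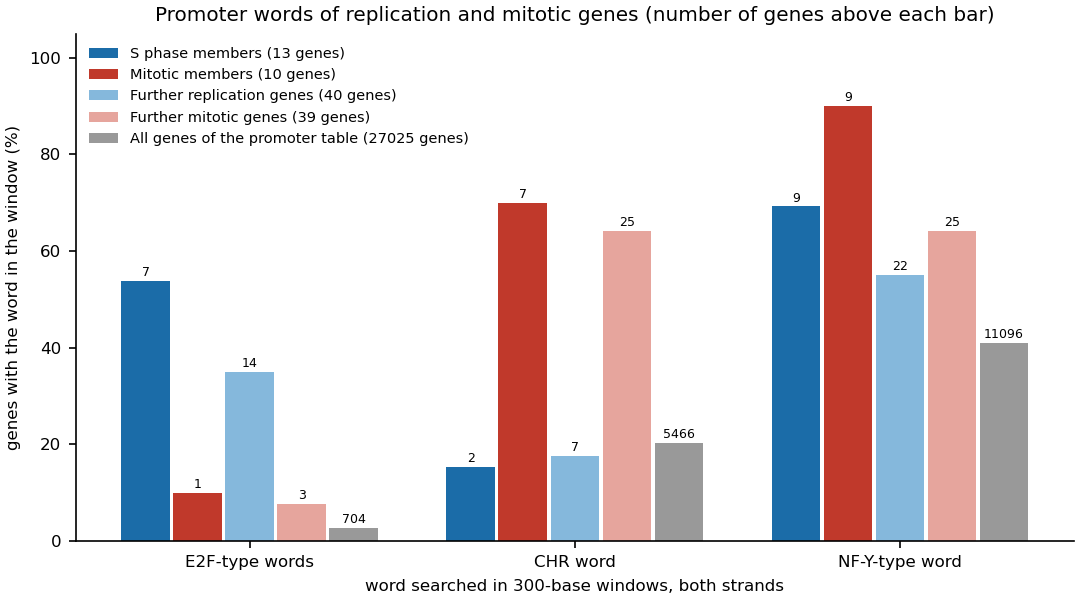
Share of genes (percent) whose 300-base promoter window holds each kind of word, for the S phase members, mitotic members, further replication genes, further mitotic genes and all genes of the promoter table, with the number of genes above each bar. E2F-type words stand at 53.8% of S phase members and the CHR word at 70% of mitotic members.

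The further lists showed the same split, with E2F-type words in 14 of 40 replication genes and 3 of 39 mitotic genes, and the CHR word in 7 of 40 and 25 of 39. Among S phase genes, the windows of Cdc6, E2f1 and Mcm7 lie wholly inside the GENCODE span of the gene, and the RefSeq start of Pcna lies inside its span. A word found or missed in these windows can therefore be in transcribed sequence. By gene-level TPM, the words did not mark the highest or the lowest gene of these 2 groups, and the genes in between were not compared. Cdc6, with an E2F-type word, was the lowest S phase gene at 0.545 TPM, and Pcna, with none in its window, the highest at 21.4 TPM. Both the highest mitotic gene, Top2a, and the lowest, Ccnb2, held the CHR word. A match is a description of letters and does not show binding.

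The libraries were then set against each other as the log2 ratio of replicate 2 over replicate 1 on scaled counts, for genes that averaged 10 counts or more. With 1 library on each side this compares libraries only. Of 40 members 1 lay past 2-fold, against 1.87% of 11430 nuclear protein-coding genes. This was Ccnd2 with a ratio of 1.26 on 6 and 21 counts, and its 95% counting interval, -0.04 to 2.92, included 0. Of the 40, 23 lay above 0 (57.5%), against 56.1% of all genes.

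The groups differed in sign. The S phase genes had a median ratio of -0.12, with 5 of 16 above 0, and the mitotic genes one of 0.17, with 8 of 11 above 0. The inhibitors and pocket proteins were at 0.15 with 6 of 6 above 0, and the G1 genes at 0.01 with 4 of 7 above 0. Over all nuclear protein-coding genes the median was 0.04. By summed counts, S phase genes were at -0.03 (95% counting interval -0.13 to 0.06) and mitotic genes at 0.36 (0.25 to 0.47). Leaving out Mki67 left the mitotic sum at 0.36.

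The counting interval left out 0 for 5 members, all of them higher in replicate 2. Of all nuclear protein-coding genes with the same minimum, 26% had such an interval and 15.7% one above 0, so the members' count was not above the background. These were Bub1 with a ratio of 0.95 (0.34 to 1.62), Top2a with 0.49 (0.23 to 0.75), Mki67 with 0.36 (0.21 to 0.51), Cdkn1b with 0.28 (0.13 to 0.43) and Rb1 with 0.18 (0.10 to 0.26). No S phase gene was among them. These intervals cover counting error only, while the common coefficient of variation between the libraries beyond counting was 9.77% over 14576 genes.

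**Figure D3:**
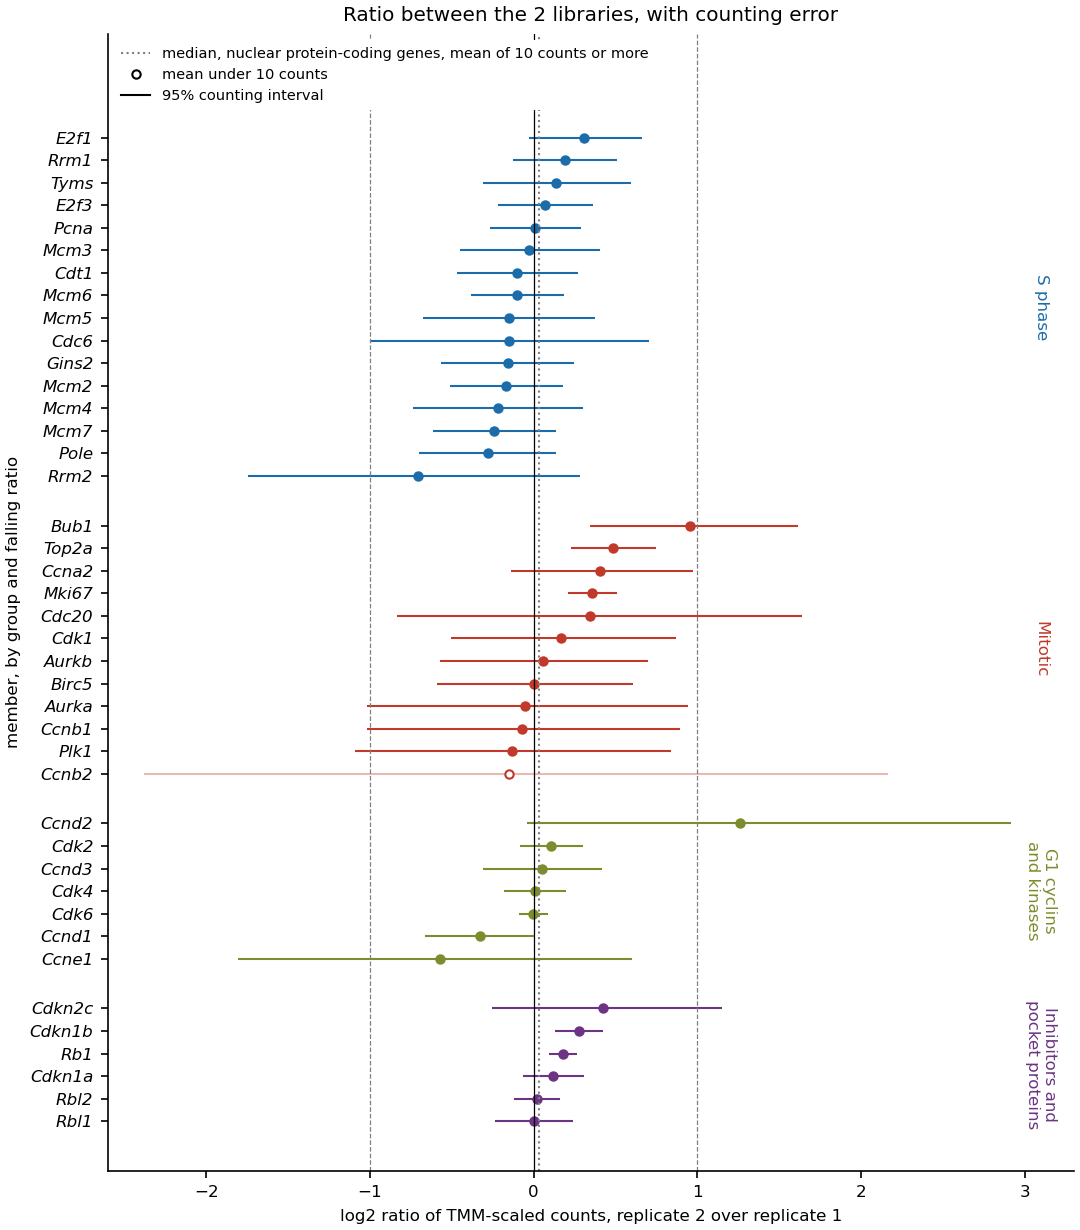
Log2 ratio of scaled counts, replicate 2 over replicate 1, for each member by group, with 95% counting intervals. Dashed lines mark 2-fold in either direction and the dotted line the median of nuclear protein-coding genes, 0.04. Bub1, Top2a, Mki67, Cdkn1b and Rb1 have intervals to the right of 0, and Ccnb2 (open) has a mean under 10 counts.

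Expressed as a share, mitotic genes took 38.6% of the mitotic and S phase counts in replicate 1 (95% Wilson interval 36.7% to 40.4%) and 45.2% in replicate 2 (43.7% to 46.7%). Without Mki67 the shares were 21.2% and 26.0%, and without Mki67 and Top2a 13.3% and 15.8%. In the second kind of table they were 32.7% and 38.4%. In each of these the share was larger in replicate 2. The further lists gave a smaller gap, 43.9% in replicate 1 and 46.1% in replicate 2. The median ratio of further replication genes was 0.03, with 25 of 46 above 0, and that of further mitotic genes 0.35, with 33 of 44 above 0, so the sign of the S phase median was not that of the longer replication list. The 8 macrophage markers had a median ratio of -0.14, with 1 of 8 above 0. The RNA input of 250 and 500 ng differs in the same way between the libraries, and its part in these ratios was not tested.

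TPM and counts do not always tell the same story for a gene. Top2a was level in TPM, 7.83 and 7.86, while its scaled counts were higher in replicate 2. Its effective length was 2319 bases in replicate 1 and 3032 in replicate 2, with 35.1% of its level in replicate 1 and 49.3% in replicate 2 assigned to the full transcript Top2a-201 and the rest to shorter ones. Mki67 was assigned whole to 1 transcript, Mki67-201, and its effective length was 9821 and 9817 bases.

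Much of the RNA was assigned to transcripts annotated as retaining an intron. Over members with such a transcript and at least 50 counts in each library, the share of TPM on them was a median of 60.7% ± 6.20 in 11 S phase genes, 65.0% ± 4.85 in 5 G1 genes and 60.1% ± 3.23 in 3 pocket proteins (SD of the library medians, n = 2). The share was 50% or more in 12 of 19 members, against 47.8% of nuclear protein-coding genes under the same rule, whose median was 48.8%. By expected counts in place of TPM the S phase median was 38.2% and the pocket protein median 19.7%. No mitotic gene met the minimum. With a minimum of 10 counts their median was 50.9%.

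**Figure D4:**
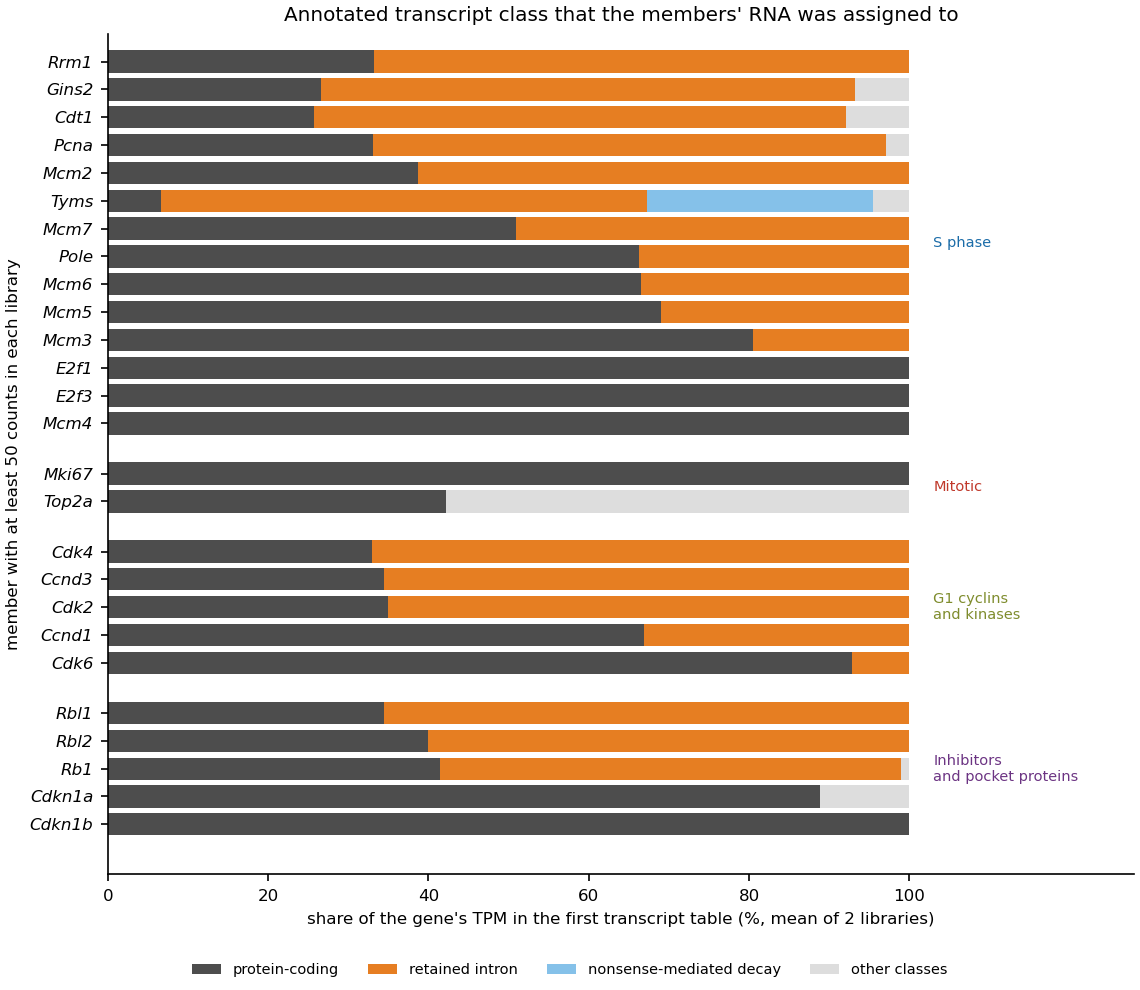
Share of each gene's TPM (percent, mean of 2 libraries) on annotated transcript classes in the first transcript table, for members with at least 50 counts in each library. Retained-intron transcripts hold most of the level of Rrm1, Gins2, Cdt1, Pcna, Mcm2, Tyms, Cdk4, Ccnd3, Cdk2, Rbl1, Rbl2 and Rb1, and 7.15% of that of Cdk6.

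The pocket proteins were close to each other, with 65.6% for Rbl1, 60.1% for Rbl2 and 57.6% for Rb1. For Rb1 this share came from the 946-base Rb1-204 and the 355-base Rb1-205, while the 4656-base coding transcript Rb1-201 held 36.05 and 38.04 TPM and most of the counts, 1649 of 1877 in replicate 1. Cdk6 stood apart among G1 genes with 7.15%. Its short transcripts Cdk6-203 and Cdk6-205 are annotated as protein-coding. Single shares could be unstable at these depths, and that of Mcm3 was 35.3% in replicate 1 and 3.85% in replicate 2. Mki67, Top2a, E2f1, E2f3, Mcm4, Cdkn1a and Cdkn1b are among the 11 members with no such transcript in the annotation. On protein-coding transcripts alone the S phase median was 1.92 TPM and the mitotic median 0.855 TPM.

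The second transcript table, made from the reads with an index of the same transcripts, held 19200416 and 24693077 counts and placed 7 of 41 members more than 2-fold higher than the gene table in both libraries, after both were rescaled over protein-coding genes. Over all such genes with values the share was 12.3%. No member was more than 2-fold lower, against 1.15% of genes. The 7 were Ccnd2, Cdk1, Birc5, E2f3, Tyms, Rrm1 and Pole.

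**Figure D5:**
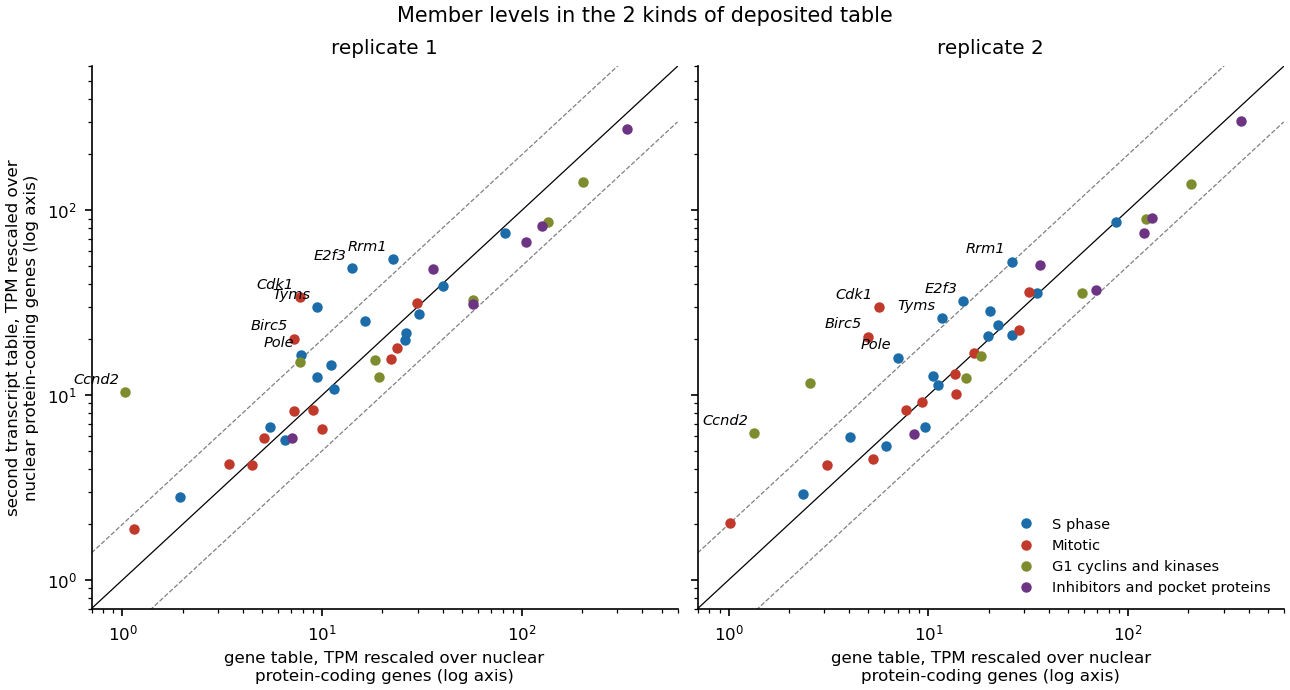
TPM of the members in the second transcript table against the gene table, both rescaled over nuclear protein-coding genes (log axes), in replicate 1 (left) and replicate 2 (right). The solid line marks equal values and the dashed lines 2-fold. Named genes are the 7 above the upper line in both libraries.

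Ccnd2 differed most, by 10.04-fold in replicate 1 and 4.62-fold in replicate 2. The second table gave it 223 and 314 counts, against 6 and 21 in the gene table, nearly all on the 6330-base transcript Ccnd2-201. It thus counts as detected in one kind of table and not in the other. The deposited posterior mean TPM of the gene table put Ccnd2 at 63.9 TPM in replicate 1, of which 62.67 belonged to Ccnd2-203, a 127-base entry with an effective length of 1.38 bases and 0 counts.

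Birc5 had 372 and 538 counts in the second table, against 42 and 59 in the gene table, and ratios of 2.78 and 4.14. Cdk1 had ratios of 4.38 and 5.27, with 61.3 and 88.6 counts on Cdk1-207, a transcript with 0 counts in the first table. E2f3 had ratios of 3.41 and 2.15, with 45.9 and 35.7 counts on the 389-base E2f3-202, also at 0 in the first table. The other ratios were 3.16 and 2.24 for Tyms, 2.39 and 2.02 for Rrm1, and 2.11 and 2.27 for Pole. The levels of these 7 genes therefore depend on the table by more than the libraries differ. In the second table the S phase median was 6.51 TPM and the mitotic median 3.1 TPM, and inhibitors and pocket proteins stayed highest at 18.9 TPM.

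Gene counts were whole numbers to within 0.01 for 30 of the 41 members in both libraries, which leaves no sign of reads shared with another gene. The 11 others include Mcm7, Pcna, Cdk4, Cdk6, Rb1 and Rbl2. Neighbouring or nested genes share exonic bases with 16 members, and the labels do not state whether the library kept strand. Fractional counts of some opposite-strand pairs add up to whole numbers. In replicate 1 Ccna2 had 43.86 and Exosc9 138.14 counts, and Ccnd1 had 142.59 and LTO1 224.41. Cdk4 had 390.35 and Tspan31 109.65. Reads were thus shared across strands in the counting of these pairs. Reads that lie within the exonic bases such a pair shares cannot be told apart by gene. In the S phase group, beside Gins2, Mcm7 has Ap4m1 and Cops6 across its ends and the microRNA genes Mir25, Mir93 and Mir106b inside it, which were listed at 0 counts. Cdc6 and Top2a, of different phases, lie 69.0 kb apart on chromosome 11 and were at 0.545 and 7.84 TPM.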

How the data were processed

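The authors deposited, per library, a gene table and a first transcript table with expected counts and TPM, and a second transcript table with estimated counts and TPM. The notes deposited with the files say that the first pair came from an alignment to GENCODE M21 transcripts on mm10, and the second from the reads with an index of those transcripts. The tools used are not stated in the sources used here. Reads in introns outside annotated transcripts are not in these tables.

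The 26345 entries that name no gene (0.338% and 0.27% of counts) were left out. Expected counts were rounded and scaled by TMM in edgeR 4.0.16, with DESeq2 1.42.0 size factors as an alternative (R 4.3.3). Log2 ratios used a prior of 0.5 counts. Counting intervals are exact binomial ones at 95%, except for Wilson intervals on shares, and cover counting error only. They treat each read as independent, although PCR copies were not marked by molecular identifiers. A count of 0 allows up to 3 counts. Detection was 1 TPM in both libraries. With 1 group of 2 libraries no test was made and no p is given.

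The members and lists were chosen with earlier results of these data known. The text names all 41 members, the 3 highest and 2 lowest genes of each further list, 2 markers, and genes that overlap a member, though not each of these is named. The ratio step was checked on simulated data. Python 3.11.15, numpy 2.4.6, pandas 2.3.3, scipy 1.17.1 and matplotlib 3.10.9 were used for the rest.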

Additional observations from a re-analysis of the deposited data

Results flagged for a closer look

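Non-coding or unclassified entries that overlap a member were outside the comparisons, and 7 of them held more than the 3 counts that a count of 0 allows in both libraries. The mean counts over the 2 libraries were 347.5 for AC167363.2 inside Cdkn1a, 178 for Gm17590 and 115.5 for Gm42435 inside Cdk6, 155 for Gm45464 inside Rbl2, 25 for Gm11365 inside E2f3, 21.5 for Gm45399 inside Rrm1 and 17.5 for Gm17233 overlapping Rb1. Of these, AC167363.2, Gm17590, Gm42435, Gm45464 and Gm11365 lie on the strand opposite to the member, and Gm45399 and Gm17233 on the same strand. AC167363.2 shares 273 exonic bases with Cdkn1a, Gm17590 368 with Cdk6 and Gm45464 892 with Rbl2. Whether the reads belong to the entry or to the member was not tested.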

How the results depend on the processing

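The highest and lowest places of the group medians (inhibitors and pocket proteins, and mitotic genes) and the sign of the S phase over mitotic ratio were kept under each alternative to the level and under the leaving out of each replicate, while the values moved with the unit and S phase genes were above G1 genes in the second transcript table. Medians below are in the order inhibitor and pocket protein, G1, S phase and mitotic genes. The second transcript table gave 18.9, 4.58, 6.51 and 3.1 TPM, the posterior mean 20.9, 14.0, 3.94 and 2.76 TPM, rescaling over protein-coding genes 87.7, 18.7, 12.7 and 7.49 TPM, and protein-coding transcripts 13.6, 2.88, 1.92 and 0.855 TPM. Means on the log2(TPM + 1) scale, turned back to TPM, gave 17.9, 7.24, 3.82 and 2.32, and on the log2(TPM + 0.1) scale 17.1, 5.98, 3.57 and 2.10. With 1 replicate left out the medians were 21.2 to 23.2, 4.50 to 5.02, 3.28 to 3.36 and 1.97 to 2.09 TPM. The log2 ratio of S phase over mitotic medians was 0.76. It was 1.07 in the second table, 0.51 by posterior means, 1.16 on protein-coding transcripts, 0.54 as a difference in mean log2(TPM + 1), 0.51 without E2f1 and E2f3, 0.95 without Mki67 and Top2a, 0.87 for the further lists, and 0.65 to 0.77 with 1 replicate left out. Mitotic genes detected numbered 5 on protein-coding transcripts and 5 at a threshold of 2 TPM.

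Scaling by total counts moved the median replicate ratio of all genes by 0.11, and the groups with it, to 0.26 for inhibitors and pocket proteins, 0.12 for G1, -0.0116 for S phase and 0.28 for mitotic genes. The mitotic ratio was 0.41 over genes with at least 50 counts, 0.11 with no minimum, 0.36 by summed counts with or without Mki67, and 0.35 for the further list, whose summed counts gave 0.11 (0.06 to 0.15). For the further replication genes the ratio was 0.0339, of opposite sign to that of the S phase members. The summed counts, the leaving out of Mki67 there and the further lists in this ratio were chosen after seeing the data. The retained-intron median of S phase genes was 38.2% by counts and 49.1% at a minimum of 10 counts, that of G1 genes 49.0% at that minimum, and that of pocket proteins 69.1% in the second table and 19.7% by counts. With 1 replicate left out these medians were 55.1% to 63.8%, 59.3% to 66.1% and 58.1% to 62.6%. At 4-fold 2 members were higher in the second table, and at 1.5-fold 3 were higher in the gene table (Cdk2, Cdkn1b and Rbl2). By scaled counts 1 was higher there past 2-fold, Gins2. The cause of these moves was not tested.

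No paired analysis was possible because the series has 1 group. Depth limits the mitotic genes most, 10 of which had under 50 counts in a library.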
